A study of Homo sapiens with 3 samples.

Results

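Cluster 5 is 1 of the cell groups that the authors cut by graph clustering from single-cell RNA profiles of CAMA-1 spheroids, at resolution 0.8. Its members were taken as every cell that carries the cluster number 5 in the deposited annotation, which gave 1712 of 19237 annotated cells. Of these, 719 were resistant cells of the coculture library, 984 were resistant cells of the resistant monoculture library and 9 were annotated as sensitive cells of the coculture library. No cell of the sensitive monoculture library was in it. The 1703 resistant cells are described here against the 11548 resistant cells of clusters 0, 1, 2, 6 and 10.

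CAMA-1 is a human breast cancer line that expresses the estrogen receptor and is grown widely in culture. Sensitive cells carried the fluorescent transgene mVenus, and cells of the ribociclib-resistant line carried mCherry. Spheroids were started from 2000 cells, and all were kept with DMSO and 1 µM ribociclib, an inhibitor of the kinases CDK4 and CDK6, and harvested after 11 days. Coculture spheroids began with 50% sensitive and 50% resistant cells, and resistant monoculture spheroids with 100% resistant cells. Each condition is 1 library, both populations come from 1 line, and cells were frozen and thawed before capture. There was no untreated library. The clusters were cut from the same RNA that is described here, so each comparison of cluster 5 with other clusters is a description with no test and no p-value.

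CDK4 and CDK6, bound to D-type cyclins, phosphorylate the retinoblastoma protein, which releases E2F factors and starts transcription of the genes of DNA replication. A later wave of transcription, carried by the MuvB complex with B-MYB and FOXM1, makes the RNAs of mitosis, and many of their proteins are destroyed by the anaphase-promoting complex as the cell divides. A phase call from RNA reads these waves, not DNA content. Metallothioneins, which also move in these cells, are small cysteine-rich proteins that bind zinc and copper and are induced by metals and glucocorticoids.

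The given marker of the cluster, MGP (matrix Gla protein, an inhibitor of calcification; chromosome 12, 15033798 to 15038791, minus strand, GRCh37), did not set cluster 5 apart from most resistant cells. In CPM, the counts of a gene over 1000000 UMIs of the summed cells, MGP stood at 6262 in the coculture library (95% exact Poisson interval 6228 to 6296, counting error only, as for all intervals here) and at 6493 in the monoculture library (6465 to 6521). The other 5 clusters together held 6111 and 6519 CPM, a log2 ratio of 0.04 and -0.01. Clusters 0 and 1 had more MGP than cluster 5, with 7405 and 6952 CPM in coculture and 7731 and 7085 CPM in monoculture. Cluster 2 had less, with 5469 and 5730 CPM. Clusters 6 and 10 had far less, with 1041 and 989 CPM in coculture and 1423 and 1169 CPM in monoculture. Single cells of cluster 5 had a median of 56.2 MGP UMIs per 10000 in coculture (quartiles 32.9 and 86.5) and 58.4 in monoculture (31.8 and 90.6), ranges that overlapped those of clusters 0, 1 and 2. The cluster is therefore called by its number, and its leading genes are given instead.

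Cluster 5 made up 11.4% of the resistant cells in coculture (95% exact binomial interval 10.6 to 12.2) and 13.02% in monoculture (12.3 to 13.8). Cluster 0 was the largest resistant cluster, with 40.3% and 42.9%. The 2 libraries' cells of cluster 5 shared no cell barcode. A median cell of cluster 5 had 26666 UMIs and 4441 genes in coculture and 31108 UMIs and 4686 genes in monoculture, the fewest UMIs of the 6 clusters in each library. The next shallowest, cluster 0 in both libraries, had medians of 29279.5 and 34730.0 UMIs. Mitochondrial RNA was 15.2% of a median cell in both libraries, between cluster 0 (16.2% and 16.9%) and cluster 10 (12.8% and 12.2%). Summed over its cells, cluster 5 held 20459898 UMIs in coculture and 31686581 in monoculture. A doublet score above 0.25 was found in 3.62% and 2.95% of its cells, by scores computed here, between cluster 2 (8.36% and 8.32%) and clusters 0 (1.58% and 2.22%) and 6 (2.17% and 1.39%).

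All 719 resistant coculture cells of cluster 5 had an mCherry UMI and none had an mVenus UMI. The same held in each of the other 5 clusters, so it restates how the populations were told apart in coculture. In monoculture, where cells were called resistant by their library, 689 of 984 had an mCherry UMI and none had an mVenus UMI. The 8 markers of luminal epithelium, of which KRT18, KRT19 and KRT8 made up most, summed to 10705 and 13477 CPM, above each of the other 5 clusters in its library. Markers of other cell types were near 0. The 8 basal and myoepithelial markers summed to 3.96 and 2.46 CPM, with KRT5, KRT17, TP63 and CNN1 at 0 UMIs in both libraries, and the other clusters ranged from 2.09 to 5.67 CPM in coculture and from 1.83 to 4.11 CPM in monoculture. The 7 fibroblast markers summed to 6.35 and 3.06 CPM, within the 4.22 to 7.65 and 1.62 to 4.21 CPM of the others, with DCN, LUM and PDGFRA at 0. The 4 endothelial markers that were matched summed to 0.244 and 0.158 CPM, with CDH5 at 0, and the others ranged from 0 to 0.206 CPM. The 8 immune markers summed to 2.35 and 3.57 CPM, against 1.18 to 2.18 CPM in the other clusters, with PTPRC, CD3E, CD3D, MS4A1 and TYROBP at 0 and the sum made mostly of CD14 and CD68.

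By the authors' phase calls, cluster 5 was mostly G1 with a sizeable G2M part and few S cells. In coculture 65.5% of its cells were called G1 (61.9 to 69.0), 28.5% G2M (25.2 to 32.0) and 5.98% S (4.36 to 7.97). In monoculture 69.0% were called G1 (66.0 to 71.9), 24.0% G2M (21.4 to 26.8) and 7.01% S (5.50 to 8.79). Cluster 0 held more G1 cells, 83.7% and 80.7%, and fewer G2M cells, 5.88% and 5.10%. Cluster 2 was 98.2% and 97.9% G2M, and the S share of clusters 1 and 10 was 90.4% and 93.8% in coculture and 90.3% and 96.6% in monoculture. Cluster 6 had G1 shares of 58.0% and 52.6%, with S shares of 27.0% and 31.6%. By these calls cluster 5 thus had a lower S share than each of the other clusters except cluster 2, and the highest G2M share after cluster 2. Of all resistant cells called G2M, 13.3% in coculture and 14.6% in monoculture were in cluster 5, but 2.64% and 3.19% of those called S.

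**Figure D1:**
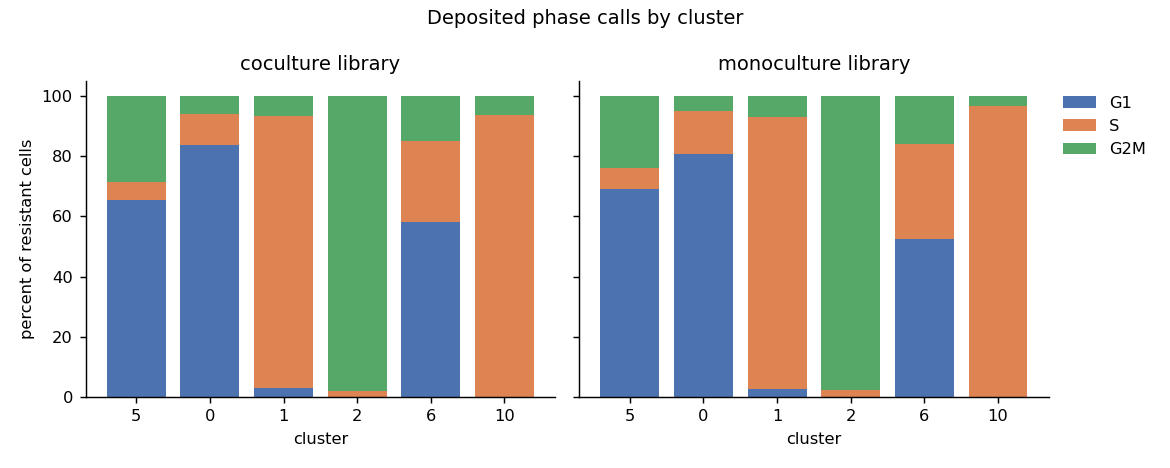
Share of resistant cells (percent, vertical axis) called G1, S or G2M in the authors' annotation, by cluster and library. Cluster 5 holds 65.5% and 69.0% G1 cells, between cluster 6 and cluster 0, and a G2M share of 28.5% and 24.0% that only cluster 2 exceeds.

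The G2M share depended on how phases were called. Calls made here from the same S and G2M gene lists put 21.97% of cluster 5 in G2M in coculture and 19.3% in monoculture on all UMIs, and 19.3% and 15.96% after each cell was thinned to 5000 UMIs. The same calls gave 1.18% and 1.33% for cluster 0, and 2.68% and 2.996% after thinning. With a score above 0.1 required, 9.60% and 9.96% of cluster 5 were called G2M, and 0.197% and 0.0618% of cluster 0. Cluster 5 held a larger G2M share than cluster 0 under each of these ways of calling. The S shares of the 2 clusters lay closer after thinning, with overlapping intervals in each library. In coculture they were 9.46% in cluster 5 (7.42 to 11.84) and 11.96% in cluster 0 (10.72 to 13.28). In monoculture they were 11.4% (9.47 to 13.53) and 13.5% (12.34 to 14.72). The G2M-called cells of cluster 5 scored below those of clusters 1 and 2 and above those of clusters 0 and 6. Their median G2M score in the authors' annotation was 0.0973 in coculture (quartiles 0.0463 and 0.164) and 0.111 in monoculture (0.0474 and 0.173), against 0.373 and 0.385 for the G2M cells of cluster 2. The quartile ranges of clusters 5 and 2 did not overlap. The medians in cluster 0 were 0.0185 and 0.0229 and those in cluster 6 were 0.0431 and 0.0502, and the quartile ranges of clusters 5 and 6 overlapped. Cluster 1 had 69 and 97 G2M-called cells with medians of 0.131 and 0.204, and its quartile ranges overlapped those of cluster 5.

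Among 12297 genes with at least 50 UMIs in each library, 99 were higher in cluster 5 than in the other 5 clusters by a log2 ratio of at least 0.5 in both libraries (0.805% of the genes measured), and 262 were lower (2.13%). Ratios are of CPM + 1, taken within each library. Many of these genes were low: of 2204 genes whose mean over the 6 clusters, each with equal weight, reached 50 CPM in each library, 11 were higher and 41 lower. Genes are ranked below among these 2204. Some of them, such as CDK1 and MKI67, reached that mean through the cycling clusters and were under 50 CPM in cluster 5. Over those 2204 genes the ratios of the 2 libraries had a correlation across genes of 0.965, a description, since the clusters were cut on both libraries together. No gene passed 0.5 in opposite directions.

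**Figure D2:**
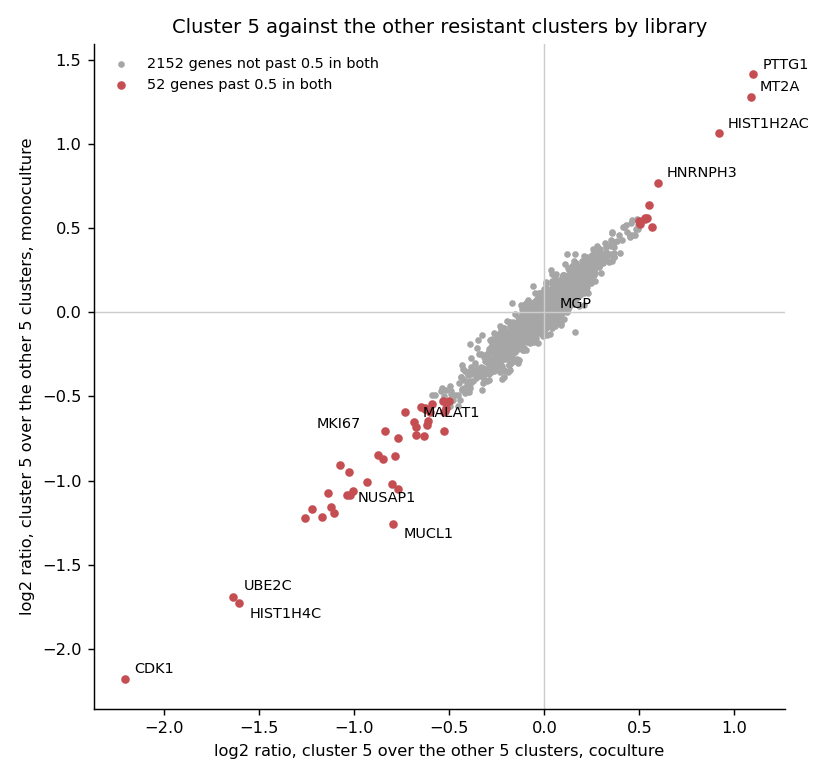
Log2 ratio of CPM + 1, cluster 5 over the other 5 clusters, in coculture (horizontal) and monoculture (vertical), 1 point for each gene whose mean over the 6 clusters reached 50 CPM; red points are the 52 genes past 0.5 in both libraries. PTTG1 and MT2A lie furthest up and CDK1 furthest down, and MGP lies at the centre.

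Among the 2204 genes the highest ratio was that of PTTG1, which codes for securin, the inhibitor that holds separase back until anaphase (chromosome 5, 159848862 to 159855746, plus strand, GRCh37). PTTG1 stood at 464 CPM in coculture (454 to 473) and 562 CPM in monoculture (553.5 to 570.0), against 216 and 210 CPM in the other clusters together, log2 ratios of 1.10 and 1.41 with counting standard errors of 0.0167 and 0.0126. Cluster 0 held 57.4 and 65.5 CPM, cluster 1 held 130 and 149 CPM, cluster 6 held 190 and 270 CPM and cluster 10 held 125 and 138 CPM. Cluster 2, the G2M cluster, was the only one above cluster 5, with 667 and 692 CPM. Cluster 5 was thus 3.04 (log2) above cluster 0 and 0.41 below cluster 2. PTTG1 has near-identical gene copies in the human genome, and how reads shared with them were counted is not given in the sources used here.

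The second among these genes was MT2A, the main metallothionein of most human cells (chromosome 16, 56642496 to 56643409, plus strand). MT2A reached 944 CPM in coculture (931 to 958) and 782 CPM in monoculture (772 to 791), and the other clusters together 444 and 321 CPM. As with PTTG1, cluster 0 was lowest, with 142 and 117 CPM, and only cluster 2 was above cluster 5, with 1183 and 893 CPM. Of the 4 metallothioneins measured, MT2A and MT1A were past the fold upward, and MT1F and MT1X had mean log2 ratios of 0.36 and 0.20. MT1A was low, at 7.97 and 6.85 CPM against 4.21 and 3.79 CPM. The list had a median of 0.55, beside 0.00 over all genes measured. Metallothionein genes resemble each other closely, so counts may be shared between them.

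Histone genes went both ways. HIST1H2AC, a histone H2A gene of the large cluster on chromosome 6 (26124373 to 26139344, plus strand), was at 141 CPM in coculture (136 to 146) and 131 CPM in monoculture (127 to 135), above every other cluster, the nearest being cluster 0 with 94.4 CPM in coculture and cluster 6 with 84.5 CPM in monoculture. HIST1H2BJ (mean log2 ratio 1.30), HIST2H2BE (0.85) and HIST1H2BD (0.68) were also past the fold upward, at 10.4, 12.02 and 43.0 CPM in coculture. HIST1H4C, a histone H4 gene whose RNA is made in S phase, was at 188 and 134 CPM in cluster 5 and at 574 and 445 CPM in the others together, a mean log2 ratio of -1.67. HIST1H1B, a linker histone, was at -1.06. In all, 4 of the 13 histone genes measured were past the fold upward and 3 downward. The downward counts depended on the cells compared. Over cluster 0 alone, where 3.08% of all genes measured were higher and 1.55% lower, 5 of the 13 were higher and none lower. In G1-called cells, where 2.04% were higher and 1.23% lower, 2 were higher and none lower, and both HIST1H4C (0.55) and HIST1H2BD (-0.05) had the other sign. Poly(A)-primed libraries such as these catch histone RNAs only in part, since most lack a poly(A) tail.

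Others of the 2204 genes past the fold upward had smaller ratios. HNRNPH3, an RNA-binding splicing factor, was at 70.2 and 81.8 CPM against 46.0 and 47.6 CPM, a 1.61-fold difference. ARL6IP1, which shapes the endoplasmic reticulum membrane, had a mean log2 ratio of 0.59. HSP90AB1, a cytosolic chaperone, was at 3851 and 3217 CPM against 2648 and 2183 CPM. HSPD1, the mitochondrial chaperonin, had a mean log2 ratio of 0.54. The others past the fold were B4GALT1 (a Golgi galactosyltransferase, 0.55), H2AFJ (a histone H2A variant, 0.54), CDKN3 (a phosphatase of cyclin-dependent kinases, 0.52) and KRT8 (0.51). PNN, a splicing and adhesion protein, had a mean log2 ratio of 0.52 but 0.49 in coculture, and so was not past the fold in both libraries. Of the 14 heat shock genes, 2 were past the fold and the list's median was 0.13, with HSPA8 at -0.21. Summed, the list was at 10674 and 9811 CPM in cluster 5 and nearly as high in cluster 2, at 10186 and 9525 CPM.

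KRT8 and KRT18, which pair to form the filaments of simple epithelia, were each highest in cluster 5. KRT18 was at 3537 CPM in coculture and 4871 CPM in monoculture, and the nearest other cluster, cluster 0, had 2862 and 3731 CPM. KRT8 was at 2267 and 2766 CPM, with 1831 and 2125 CPM in cluster 0. KRT19 had a mean log2 ratio of 0.45. KRT81, a hair-type keratin, went the other way, with 27.1 and 25.9 CPM against 118 and 121 CPM in cluster 0. Median KRT81 UMIs per 10000 in single cells were 0 in both clusters and libraries. The upper quartiles in clusters 5 and 0 were 0.2365 and 0.2736 in coculture and 0 and 0.2376 in monoculture. The gap in CPM thus came mostly from cells above these quartiles. Of the 9 keratins measured, 1 was past the fold upward and 1 downward, and the median was 0.24 (0.42 in coculture and 0.06 in monoculture). In G1-called cells the median was -0.08.

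The gene with the lowest ratio among the 2204 was CDK1, the kinase that drives entry into mitosis (chromosome 10, 62538089 to 62554610, plus strand). CDK1 stood at 11.2 CPM in coculture (9.79 to 12.7) and 9.94 CPM in monoculture (8.87 to 11.1), against 55.3 and 48.4 CPM in the other clusters, a 4.57-fold difference. It was lower in cluster 5 than in every other cluster: cluster 0 held 16.3 and 16.02 CPM, cluster 6 held 25.7 and 19.6 CPM, cluster 1 held 70.2 and 68.4 CPM, cluster 10 held 90.3 and 75.8 CPM and cluster 2 held 134 and 127 CPM. UBE2C, the ubiquitin-conjugating enzyme of the anaphase-promoting complex, showed the same order at its foot, with 53.9 and 57.3 CPM in cluster 5 and 59.3 and 67.2 CPM in cluster 0, up to 466 and 575 CPM in cluster 2.

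The other 9 of the 12 lowest of these genes belong to replication and mitosis. ATAD2 (-1.24), PCNA (-1.19), HELLS (-1.15), TK1 (-1.14), GINS2 (-1.05) and MCM7 (-1.04) serve DNA replication, nucleotide supply or chromatin. TOP2A (-1.20), AURKA (-1.11) and NUSAP1 (-1.06) serve chromosome untangling and the spindle. In G1-called cells PCNA, HELLS, TK1, GINS2, TOP2A and NUSAP1 had ratios above 0, as given below. PCNA, the sliding clamp of DNA polymerases, was at 34.8 and 41.4 CPM, close to cluster 0 (30.6 and 39.8 CPM) and far under cluster 1 (176 and 220 CPM). TOP2A, at 96.5 and 75.02 CPM, was above cluster 0 (60.0 and 49.2 CPM) and under cluster 2 (630 and 524 CPM).

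**Figure D3:**
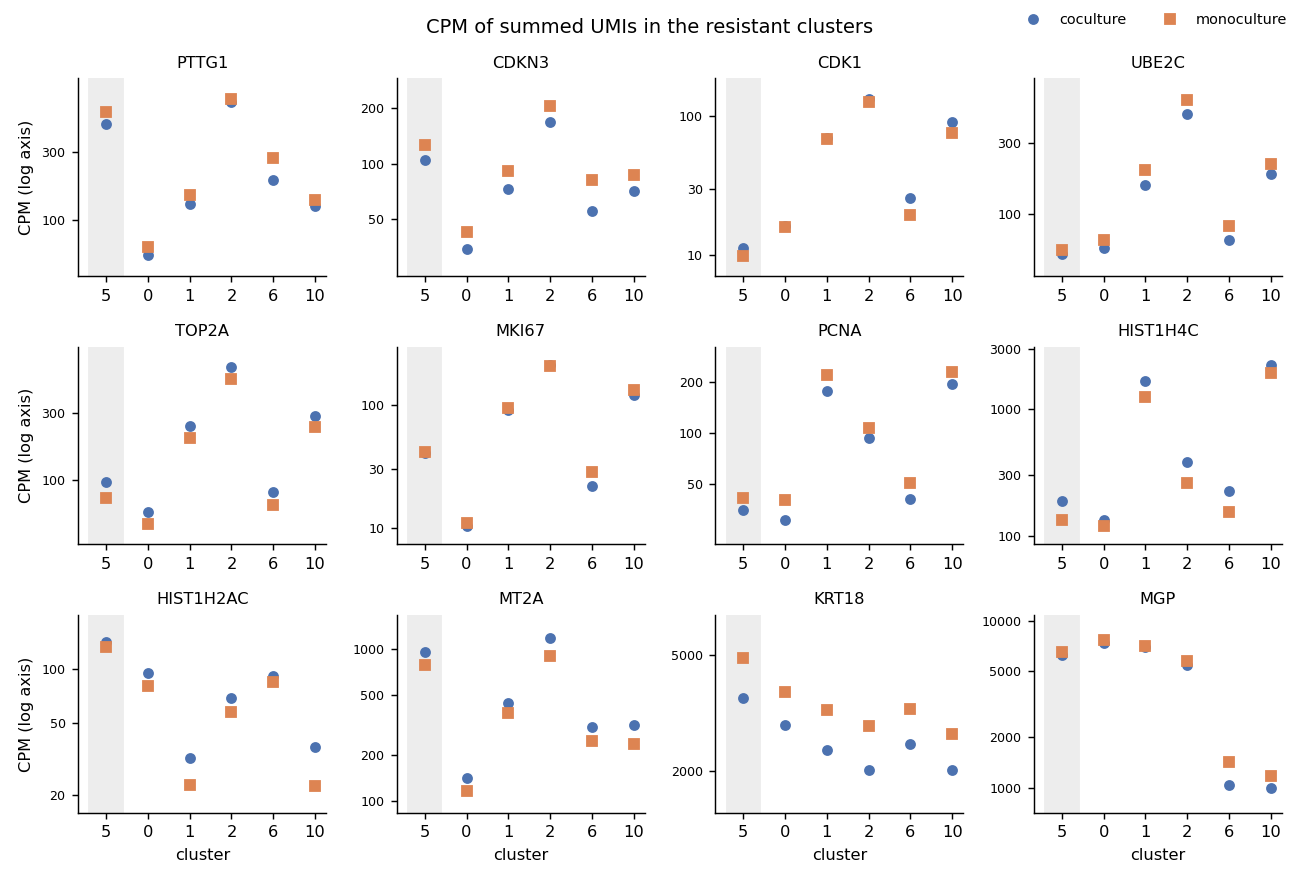
CPM of summed UMIs (log axis, each gene on its own scale) of 12 named genes in the 6 resistant clusters, with cluster 5 shaded; circles are coculture and squares monoculture, 1 library each. PTTG1, CDKN3 and MT2A are second to cluster 2 in cluster 5, CDK1 and UBE2C are lowest there, HIST1H2AC and KRT18 are highest there, and MGP is low in clusters 6 and 10 but not in cluster 5.

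The promoters of 5 of these genes are shown. PTTG1 and CDKN3 stood high in cluster 5 while CDK1 and TOP2A, which are transcribed in the same part of the cycle, stood low. MT2A had the second highest ratio and is in neither phase list, though it too was higher in G2M-called than in G1-called cells. Each is the 250 bases upstream of the first start site listed in RefSeq for GRCh38.p14, 5′ to 3′ on the gene's strand. PTTG1 and CDK1 each have 2 windows listed, of which only the first is shown and searched. Their matches therefore describe that window and not the whole promoter. Capitals in the first 4 mark CCAAT boxes (CCAAT, either strand) and the sequence TTTGAA (either strand), a core of the cell cycle homology region; in MT2A they mark TGCACNC or TGCGCNC on either strand, the core of the metal response element. Neighbouring matches may overlap, as in CCAATTGG.
PTTG1, chr5:160421605-160421854, plus strand: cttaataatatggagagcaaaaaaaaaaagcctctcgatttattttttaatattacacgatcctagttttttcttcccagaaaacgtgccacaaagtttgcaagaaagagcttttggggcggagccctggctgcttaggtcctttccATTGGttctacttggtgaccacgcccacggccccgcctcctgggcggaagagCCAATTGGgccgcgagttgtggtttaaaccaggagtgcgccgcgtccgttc
CDKN3, chr14:54396757-54397006, plus strand: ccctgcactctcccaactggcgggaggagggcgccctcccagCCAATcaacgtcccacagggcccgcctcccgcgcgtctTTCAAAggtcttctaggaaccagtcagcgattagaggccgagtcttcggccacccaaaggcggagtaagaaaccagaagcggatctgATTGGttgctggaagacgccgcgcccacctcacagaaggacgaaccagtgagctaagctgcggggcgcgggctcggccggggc
CDK1, chr10:60778081-60778330, plus strand: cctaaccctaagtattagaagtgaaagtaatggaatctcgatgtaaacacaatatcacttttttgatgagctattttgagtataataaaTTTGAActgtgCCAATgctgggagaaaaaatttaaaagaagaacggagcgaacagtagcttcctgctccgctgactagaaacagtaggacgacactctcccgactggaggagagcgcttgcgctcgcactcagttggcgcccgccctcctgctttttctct
TOP2A, chr17:40417897-40418146, minus strand: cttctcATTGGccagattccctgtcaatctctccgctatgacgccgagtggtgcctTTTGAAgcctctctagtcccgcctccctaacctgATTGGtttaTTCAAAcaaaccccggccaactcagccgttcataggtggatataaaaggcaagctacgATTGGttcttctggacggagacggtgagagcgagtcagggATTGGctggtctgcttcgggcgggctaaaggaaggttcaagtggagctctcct
MT2A, chr16:56608334-56608583, plus strand: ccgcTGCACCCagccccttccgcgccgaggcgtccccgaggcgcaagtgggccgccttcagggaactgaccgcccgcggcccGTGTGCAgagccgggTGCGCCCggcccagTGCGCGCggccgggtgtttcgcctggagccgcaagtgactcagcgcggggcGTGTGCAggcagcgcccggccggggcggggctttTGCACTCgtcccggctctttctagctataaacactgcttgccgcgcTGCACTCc

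The PTTG1 window held 3 CCAAT matches and no TTTGAA, CDKN3 held 2 and 1, CDK1 held 1 and 1, and TOP2A held 4 and 2. Of 35116 windows of the same length, 32.0% held CCAAT, 13.3% held TTTGAA and 24.8% held the metal response core, of which MT2A had 7 matches. The genes that stood high and those that stood low thus both held CCAAT matches. A match is a run of letters, and no binding was measured.

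As a list, the S phase genes had the lowest median ratio, although cluster 0 held less of them in sum (643 and 666 CPM against 752 and 729 CPM in cluster 5), with 29 of 41 measured members past the fold downward, none upward, none above 0 and a median of -0.86. Over cluster 0 alone, 6 of the 41 were past the fold upward and 2 downward, with a median of 0.06. Of all genes measured over cluster 0, 3.08% were higher and 1.55% lower, with a median of 0.05. Over all 5 other clusters, CCNE2 (-2.00), RRM2 (-1.90) and WDR76 (-1.82) had the lowest ratios. Of 53 G2M genes, 32 were past the fold downward and none upward, with a median of -0.73. The direction turned over cluster 0 alone, with 17 of the 53 past the fold upward, 1 downward and a median of 0.32, and over cluster 6, where 3.04% of all genes measured were higher and 2.96% lower, there were 4 upward and 5 downward with a median of 0.03. HJURP, a chaperone of the centromeric histone, was at 3.86 and 2.94 CPM against 21.2 and 16.5 CPM. The 3 members above 0 were ANP32E (0.41), CTCF (0.04) and BIRC5 (0.03). PTTG1 and CDKN3 are in neither list.

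Of the 22 genes of CDK4/6, cyclins, RB and E2F, 8 were past the fold downward, among them CCNE2, E2F8 (-1.56) and RBL1 (-1.18), and none upward, with a median of -0.24. Over cluster 0, 3 of 20 measured were past the fold upward and none downward, with a median of 0.12. Of all genes measured there, 3.08% were higher and 1.55% lower, with a median of 0.05. In G1-called cells 1 of 20 was upward and none downward, with a median of 0.12. Of all genes measured there, 2.04% were higher and 1.23% lower, with a median of 0.05. The kinases and cyclin targeted by the drug's pathway differed little: CDK4 was at 92.4 and 96.4 CPM against 110 and 113 CPM, and CCND1 at 1680 and 1901 CPM against 1530 and 1662 CPM. CDK6 was at 0.147 and 0.158 CPM and is given no ratio. CDKN1A, the p21 inhibitor, had log2 ratios of 0.26 in coculture and -0.17 in monoculture. The receptor genes ESR1 and PGR had mean ratios of 0.10 and -0.27, and none of 36 estrogen-induced genes was past the fold (median 0.05), with TFF3, a secreted trefoil peptide, at -0.39. Over cluster 6, where 3.04% of all genes measured were higher and 2.96% lower, 7 of 35 of these genes were past the fold upward and 1 downward, with a median of 0.27. Over cluster 0 and in G1-called cells 3 of 36 were upward and 1 downward, beside the shares of all genes given above.

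Of the 29 MYC targets, 26 had a ratio above 0, beside 6281 of all 12297 genes measured. Of these targets 1, HSPD1, was past the fold, and the median was 0.18. NPM1 (1567 and 2109 CPM against 1224 and 1525 CPM) and NCL (698 and 575 CPM against 593 and 464 CPM), both nucleolar proteins, were among those above 0. The list was not particular to cluster 5. Over cluster 6, none of the 29 was past the fold upward and 2 were downward, with 15 above 0 and a median of 0.03. Summed, cluster 10 held 8430 and 8707.5 CPM of the list, against 8116 and 8682 CPM in cluster 5. The secretory product MUCL1 was at 301 CPM in coculture and 131 CPM in monoculture, against 524 and 314 CPM in the others and 804 and 458 CPM in cluster 0. Single cells showed a smaller gap than these sums. Median MUCL1 UMIs per 10000 were 1.267 and 0.5305 in cluster 5 and 1.656 and 0.7556 in cluster 0. The quartile ranges of the 2 clusters overlapped in each library. CLIC3, a chloride channel protein, had a mean log2 ratio of -0.69, and the nuclear RNA MALAT1 one of -0.67, lower than in each other cluster. Ribosomal protein genes (median 0.07, none of 36 past the fold), the 13 mitochondrially encoded genes (0.03) and the 30 nuclear genes of the respiratory chain (-0.03) lay near the median of all genes.

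**Figure D4:**
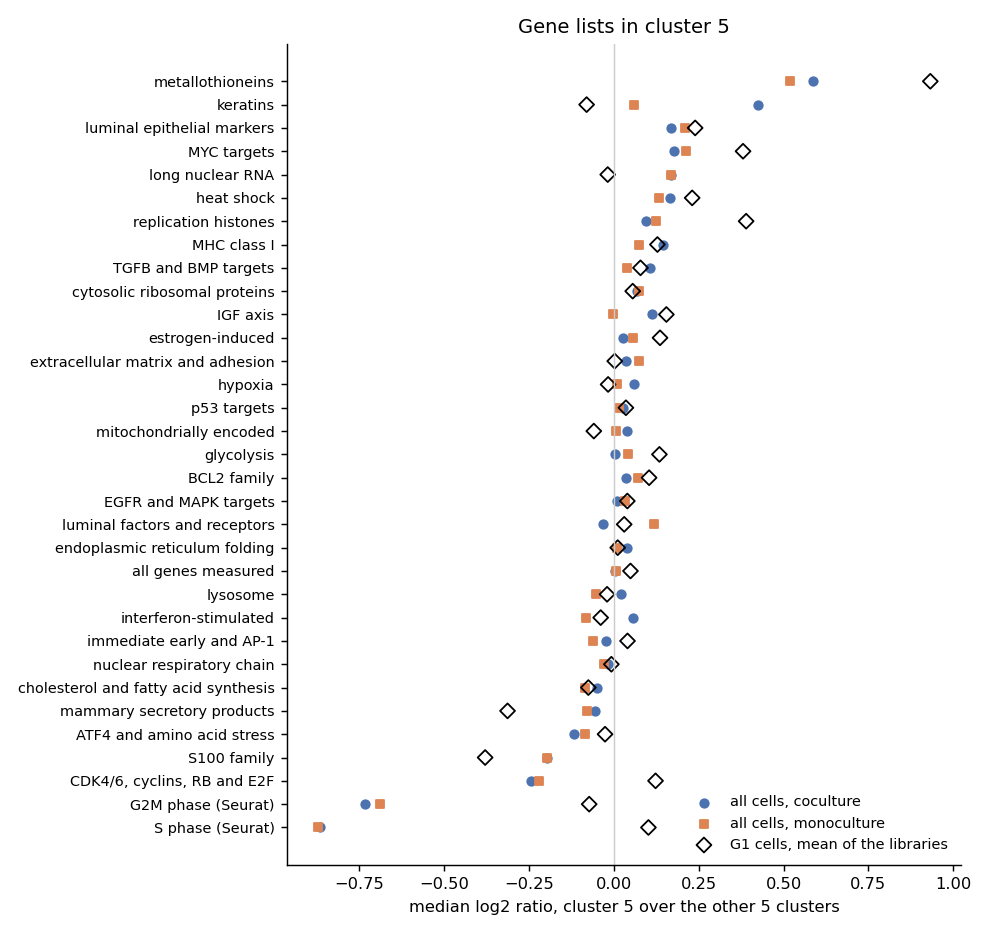
Median log2 ratio of each gene list with at least 4 measured members, cluster 5 over the other 5 clusters, for all cells in coculture (circles) and monoculture (squares) and for G1 cells as the mean of the libraries (diamonds). Of the other clusters, only 0, 1 and 6 held G1 cells. The S phase and G2M lists lie at -0.86 and -0.73 in all cells but near 0 in G1 cells. Phases were called from these genes, so their medians near 0 in G1 cells follow in part from the calls. Their medians in all cells restate in part the phase make-up of the clusters. Metallothioneins lie at 0.55 in all cells and 0.93 in G1 cells.

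By overall distance cluster 6 was nearest. The root mean square of the log2 ratios over the 2204 genes was 0.257 in coculture and 0.245 in monoculture against cluster 6, 0.301 and 0.305 against cluster 0, 0.309 and 0.322 against cluster 1, 0.335 and 0.347 against cluster 2, and 0.406 and 0.423 against cluster 10.

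Against cluster 6, 323 genes were higher by at least 0.5 in both libraries (3.04% of 10610 measured) and 314 lower (2.96%). The 5 of the 2204 genes with the highest ratios were MGP (2.39), MT2A (1.64), TFF1 (1.36), RPL22L1 (1.35) and CLU (1.33), which code for secreted proteins other than the metallothionein MT2A and the ribosomal protein RPL22L1. TFF1, an estrogen-induced trefoil peptide, was at 5540 and 4336 CPM in cluster 5 and at 1882 and 1939 CPM in cluster 6. Of 18 mammary secretory products, 9 were measured here and 6 of them were past the fold upward, and their median was 0.97. SNCG (-1.10), IGFBP5 (-1.10), CDK1 (-1.02), MYL9 (-0.97) and PDCD4 (-0.92) were lowest. IGFBP5, a secreted binder of insulin-like growth factors, was at 1629 and 1523 CPM against 3576 and 3190 CPM.

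Against cluster 0, 359 genes were higher (3.08% of 11659 measured) and 181 lower (1.55%). Of the 2204 genes PTTG1 (3.04) and MT2A (2.73) led, followed by PCLAF (2.20), TYMS (2.16) and MKI67 (1.85), a PCNA-binding protein, thymidylate synthase and the antigen Ki-67. MKI67 was at 40.7 and 40.9 CPM against 10.3 and 10.9 CPM. MUCL1 (-1.61), CLIC3 (-1.13), MALAT1 (-0.88), SMIM1 (-0.86) and LRRC26 (-0.82) were lowest. MYC targets had a median of 0.43 with 9 of 29 past the fold upward, and the S100 family one of -0.43 with 4 of 12 past it downward, among them S100P (-0.97).

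Since the clusters differ in phase, cells of 1 phase call were also compared. Clusters 2 and 10 held no G1-called cells. Cluster 0 held 2122 and 2613, cluster 6 held 294 and 303 and cluster 1 held 29 and 36, so cluster 0 weighs most here. In G1-called cells of cluster 5 over those of clusters 0, 1 and 6, 235 genes were higher (2.04% of 11543 measured) and 142 lower (1.23%). Of the 2204 genes PTTG1 (2.53) and MT2A (2.50) again had the highest ratios, then PCLAF (1.99), TYMS (1.96) and BIRC5 (1.37), and MUCL1 (-1.50), CLIC3 (-0.97), SMIM1 (-0.83), CDK1 (-0.75) and REX1BD (-0.74) the lowest. The S phase and G2M lists had medians of 0.10 and -0.07. Of the 41 S phase genes measured, 4 were higher and 1 lower, and of the 53 G2M genes 8 were higher and 3 lower. Phases were called from these lists, so medians near 0 in G1-called cells follow in part from the calls. CDK1 was thus lower in cluster 5 within G1 cells too, unlike TOP2A (0.08) and PCNA (0.10), and UBE2C was at -0.44.

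With cluster 0 alone as the G1 comparison, a choice made after the values were seen, 330 genes were higher (2.89% of 11415 measured) and 181 lower (1.59%). PTTG1 was at 355 and 474 CPM in the G1 cells of cluster 5 and at 50.4 and 57.4 CPM in those of cluster 0. Single G1 cells of cluster 5 had a median of 3.23 PTTG1 UMIs per 10000 in coculture (quartiles 1.80 and 5.11) and 4.46 in monoculture (2.06 and 7.09). The upper quartiles in cluster 0 were 0.711 and 0.789. Those in G1 cells of cluster 6 were 2.08 and 4.41, so the quartile ranges of clusters 5 and 6 overlapped. MT2A was at 811 and 748.5 CPM against 134 and 108 CPM. CDK1 was at 7.54 and 7.07 CPM against 13.3 and 11.99 CPM. The G1 cells of the 2 clusters had median depths of 27027 and 28816.5 UMIs in coculture and 31289 and 34034 UMIs in monoculture.

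In G2M-called cells of cluster 5 over those of cluster 2, also chosen after the values were seen, 160 genes were higher (1.5% of 10668 measured) and 584 lower (5.47%). Of the 53 G2M genes, 42 were past the fold downward and none upward, with a median of -1.11. The G2M calls and scores were made from these genes, so that count restates the lower G2M scores given above. CDK1, HJURP, UBE2C and TOP2A are among these genes. CDK1 was at 17.1 and 14.2 CPM against 134 and 128 CPM, a mean log2 ratio of -2.9996, and HJURP was at -3.08, UBE2C at -2.44 and TOP2A at -1.60. PTTG1 was not lower, at 736 and 871 CPM against 673 and 698 CPM, nor was MT2A, at 1290 and 923 CPM against 1185 and 896 CPM. CDKN3 was at 155 and 200 CPM against 167 and 207 CPM. CCNB1, the mitotic cyclin B1, was in between, at 264 and 324 CPM against 473 and 523 CPM. HIST1H2AC (1.52), KRT18 (0.65) and KRT8 (0.60) were higher in the G2M cells of cluster 5. The keratin list had a median of 0.60, with 4 of 7 measured members past the fold. High PTTG1 with low CDK1 and UBE2C was also seen in the G2M-called cells of cluster 6. Their median PTTG1 UMIs per 10000 were 5.59 in coculture and 6.81 in monoculture, against 7.30 and 8.75 in cluster 5. UBE2C medians were 0.681 and 0.761 against 0.674 and 0.770, and CDK1 medians were 0 in both clusters and libraries. MT2A medians were lower in cluster 6, at 3.83 and 2.89 against 9.38 and 6.97.

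**Figure D5:**
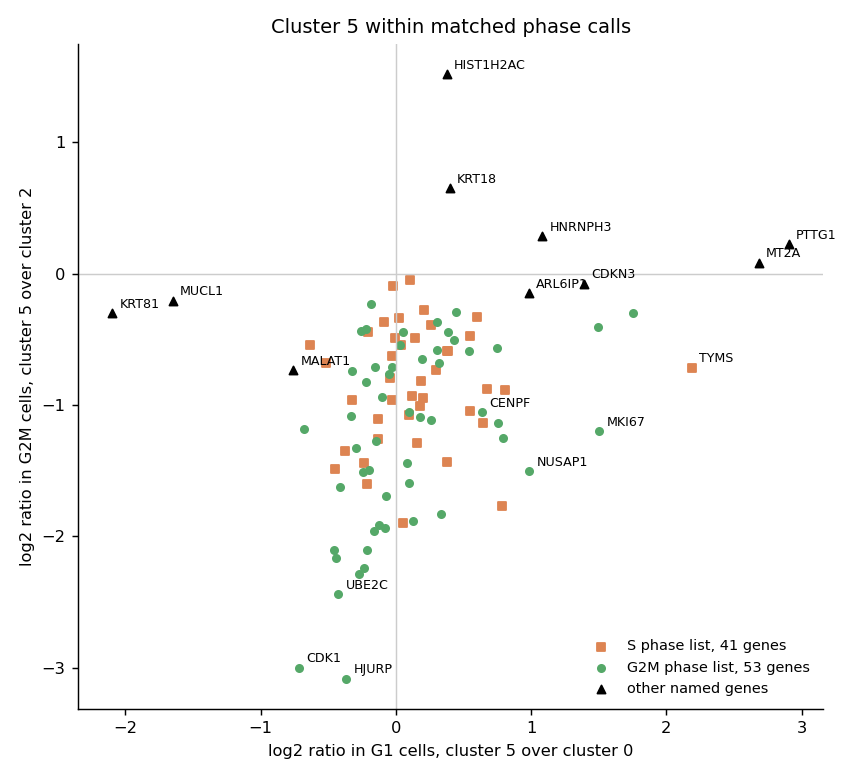
Log2 ratio of CPM + 1 in G1-called cells, cluster 5 over cluster 0 (horizontal), and in G2M-called cells, cluster 5 over cluster 2 (vertical), as means of the 2 libraries, for the S phase list (squares), the G2M list (circles) and other named genes (triangles). PTTG1 and MT2A lie far right and near 0 vertically, while CDK1, HJURP and UBE2C lie at the bottom.

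Within cluster 5, 227 genes were higher in G2M-called than in G1-called cells by at least 0.5 in both libraries (2.31% of 9825 measured) and 145 lower (1.48%). The calls were made from the G2M genes, of which 45 of 51 measured were higher, so that count follows from the calls. Outside that list PTTG1 had a ratio of 0.96, CDKN3 0.91, MT2A 0.49 and HIST1H2AC 0.55. MALAT1 had a ratio of -0.60, at 21031 and 21086 CPM in G2M cells and 33045 and 31025 CPM in G1 cells. MGP had a ratio of 0.04.

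The cluster's share of resistant cells was 11.4% in coculture and 13.02% in monoculture, and with 1 library each the gap compares these libraries and not the conditions. The cells were also chosen differently. In coculture all resistant cells of the 6 clusters had an mCherry UMI. In monoculture the share with one was 67.45% in cluster 0, 70.0% in cluster 5, 73.6% in cluster 1, 83.8% in cluster 2, 87.5% in cluster 6 and 92.6% in cluster 10. What this did to the gap was not tested. Within cluster 5, 294 genes were higher in the coculture library by a log2 ratio of at least 0.5 (2.65% of 11078 measured) and 52 were lower (0.469%). With TMM scaling the counts were 207 and 93. In the other 5 clusters summed, 193 and 17 of the same genes were past the fold, from more UMIs. Of the 2204 genes, those with the highest ratios in cluster 5 were MUCL1 (1.19), NMT1 (0.78), CLU (0.77), SNHG25 (0.75) and YWHAG (0.72), and in the other clusters their ratios were 0.74, 0.82, 0.77, 0.80 and 0.73. The lowest were NOP53 (-0.73), PIH1D1 (-0.55), UBE2S (-0.55), EPCAM (-0.53) and SUSD3 (-0.52), against -0.62, -0.33, -0.32, -0.47 and -0.37 in the other clusters. The leading genes of the cluster differed less between libraries, with PTTG1 at -0.28, MT2A at 0.27 and CDK1 at 0.16.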

How the data were processed

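Thawed spheroid cells were captured on the 10X Genomics platform with 3' v3 reagents. The authors aligned reads with Cell Ranger 3.0.2 to GRCh37 per the submitters' processing notes, and deposited UMI counts of each gene in each barcode, with no normalization. Their deposited annotation, made with Seurat 3.1.1.9023, gives counts of UMIs and genes per cell, mitochondrial percent, S and G2M scores, phase, cluster and population. Its stated limits were 3000 to 7000 genes, 2000 to 60000 UMIs and under 30% mitochondrial RNA. Limits of 2 transgene UMIs and a doublet score of 0.25 were also stated. In the deposited counts many annotated cells had fewer transgene UMIs. Of the resistant cells of cluster 5, 445 of 719 in coculture and 443 of 984 in monoculture had 2 or more mCherry UMIs. The authors' doublet scores were not used here. A further 8 columns were not used.

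Rows with no gene symbol (0.591% and 0.565% of UMIs) were left out. UMIs were summed per library and cluster over resistant cells and expressed as CPM; log2 ratios used CPM + 1 within each library, and a gene was past the fold at 0.5 or more with 1 sign in both. With 1 library per condition, and clusters cut from these cells, no test was run. Intervals are at 95% and cover counting error only. Doublets were scored anew with scrublet in scanpy 1.11.5 and marked, not removed. Own phases used scores above 0 against 100 control genes in 24 bins. As scaling only, edgeR 4.0.16 (R 4.3.3) gave TMM factors. The ratios were tested on simulated data for cluster 5 over the other 5 clusters. Of genes with at least 20 expected UMIs, 99 of 100 set higher and 91 of 100 set lower by 1 (log2) were past the fold; with at least 100, a minimum raised after that first result, 100 of 100 each way were.

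Genes were named by rule at a mean over the 6 clusters of 50 CPM in each library: the 12 highest and lowest in cluster 5, the 5 highest and lowest against clusters 6 and 0, in G1 cells and between libraries, the 3 of each list with the largest ratio, and MGP, TFF3, ESR1, PGR, CDK4, CDK6, CCND1 and MKI67. Others, such as CCNB1, CDKN1A, NCL, NPM1 and HSPA8, were named after their values were seen. The G1 comparison with cluster 0, the G2M comparison with cluster 2 and G2M over G1 cells within cluster 5 were also added then. The members and the 36 lists were chosen with earlier results of these data known. GENCODE 44, mapped to GRCh37, gave positions. Promoters are from RefSeq.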

Additional observations from a re-analysis of the deposited data

How the results depend on the processing

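The design has 1 library per condition, and clusters and phases were cut from the RNA they are described by. Counts of genes past the fold moved with the pseudocount, and PTTG1, metallothionein, keratin, histone and heat shock genes have close copies that can share reads. With a pseudocount of 0.1 CPM, 281 genes were higher and 397 lower in cluster 5; with 10 CPM, 13 and 100; at a mean over the 6 clusters of 50 CPM, 11 and 41. Cluster 5 had the lowest median of UMIs per cell; with cells thinned to 5000 UMIs, 101 genes were higher, of which 50 were among the 99, and 301 lower, of which 206 were among the 262. In cells with 2 or more mCherry UMIs, 99 genes were higher, of which 75 were among the main 99. There, 272 were lower, of which 237 were among the 262. In the coculture library alone 181 genes were higher, and in the monoculture library alone 179. With the 5 clusters weighted equally, 399 genes were lower, the MGP log2 ratio was 0.50 and 5 lists had a median of at least 0.3 in size. In G1 cells only, 235 genes were higher and 142 lower, 5 lists were past 0.3, the MGP ratio was -0.0696, cluster 5 held 15.1% of resistant cells in coculture and 17.96% in monoculture, and the root mean square against cluster 0 was 0.291. The MGP ratio was -0.0202 with TMM factors, 0.11 in cells with 2 or more mCherry UMIs and 0.36 as a mean of per-cell values.

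The G1 share was 75.1% in coculture and 77.6% in monoculture by own calls, 71.2% and 72.7% after thinning to 5000 UMIs, and 90.3% and 89.7% with a score above 0.1. With a pseudocount of 10 CPM the root mean square was 0.232 against cluster 6 and 0.277 against cluster 0, and 49 genes were higher and 4 lower in coculture within cluster 5. For that comparison, 82 genes were lower in G1 cells, 101 in cells with 2 or more mCherry UMIs and 93 with TMM factors, and thinning to 5000 UMIs gave 510 higher and 265 lower.

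Of 2383 alternatives for named genes and lists, 16 turned the sign of a log2 ratio of at least 0.5 in size, each in G1 cells only: the S phase list median was 0.10, HIST1H4C 0.55, TOP2A 0.0806, PCNA 0.10, HELLS 0.0389, TK1 0.0241, NUSAP1 0.89, GINS2 0.17, MKI67 1.36, RRM2 0.70, WDR76 0.35, HIST1H1B 0.50, FAM111B 0.23, CCNA2 0.30, HMMR 0.18 and HIST1H2BD -0.0465. Smaller ratios also changed sign under these and other alternatives, among them in G1 cells the medians of the lists of CDK4/6, cyclins, RB and E2F (0.12), keratins (-0.0804) and long nuclear RNA (-0.0182). The cause was not tested. No paired analysis was possible because each condition is 1 library and no result comes from a test.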

Other observations

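Beyond the cell cycle, a few lists held single members with large ratios beside medians near 0. Of 16 genes of MHC class I presentation, PSMB8, a subunit of the immunoproteasome, was the one past the fold, at 2.59 and 3.03 CPM in cluster 5 against 1.15 and 1.05 CPM in the other clusters, and the list's median was 0.09. DDIT4, an inhibitor of mTORC1 signalling, was at 56.3 and 85.5 CPM against 36.4 and 49.3 CPM, and cluster 6 was higher still, at 63.8 and 93.5 CPM. GDF15, a secreted stress cytokine, was at 3.32 and 3.28 CPM against 7.07 and 8.89 CPM. It had the lowest ratio in both the ATF4 list (18 measured, median -0.09) and the p53 list (16 measured, median 0.03). BBC3, which codes for the cell death protein PUMA, had mean log2 ratios of 0.60 in coculture and 0.45 in monoculture.

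The 9 cells of cluster 5 annotated as sensitive summed to 292365 UMIs, with 0 mCherry UMIs, and 2 of them had 2 or more mVenus UMIs. By the authors' calls 5 were G1, 1 was S and 3 were G2M. They held 6208 CPM of MGP (5926 to 6500), 513 CPM of PTTG1 (434 to 602) and 599 CPM of MT2A (513 to 694). The PTTG1 value lies between those of the resistant cells of the cluster in the 2 libraries, and the MT2A value lies below both of theirs (944 and 782 CPM).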
